A study of Mus musculus with 2 samples.

Results

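Bcr, the Abl kinases and their adaptors were examined as 10 genes, Bcr, Abl1, Abl2, Crkl, Crk, Grb2, Gab2, Sos1, Cbl and Dok1, taken by gene name from the 34745 genes of the deposited tables. The genes were read in BM LSKs, which are lineage-negative bone marrow cells positive for Sca1 and c-Kit, of Scl/tTA-BA mice on the C57BL/6 strain. These mice carry a tetracycline-controlled transactivator under the control of Scl, which is active in hematopoietic stem and progenitor cells, and a BCR/ABL (BA) transgene that is silent while doxycycline is in the drinking water. The week-0 library, labelled as control, held LSKs of mice kept on doxycycline, and the week-3 library held LSKs collected 3 weeks after BA expression was induced by its withdrawal. Each time point was 1 library made from 3 mice mixed together, so how much mice of 1 time point differ was not measured. Every difference below is between 2 libraries and has no replicate check. The age of the mice was not given, and a GFP reporter line followed in parallel in the study was switched on in only a part of the LSKs.

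BA joins the first part of Bcr, which lets the fused proteins pair, to the tyrosine kinase Abl1 and so keeps the kinase active. The fused protein recruits adaptors, which are proteins without catalytic activity that link a kinase to its effectors. Grb2 binds a phosphorylated tyrosine in the Bcr part and brings Sos1, which activates Ras, and the scaffold Gab2, which passes the signal to PI3K and the phosphatase Shp2. Crkl and its close relative Crk bind to Abl itself, and Crkl is a major phosphorylated substrate in chronic myelogenous leukemia (CML) cells. Cbl, a ubiquitin ligase, and Dok1, a docking protein that recruits a Ras inhibitor, are phosphorylated by BA and are best known for limiting such signals.

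Reads on genes numbered 6356164 for week-0 and 3886695 for week-3. All 10 genes were detected in both libraries, with 96 to 481 reads in the first and 48 to 345 in the second. A count of 0 would have allowed 3 reads, which is 0.472 CPM (reads scaled by the library total) in the first library and 0.772 CPM in the second. Levels are given as FPKM, the reads scaled by exon length and by all reads counted in the library. Changes are the log2 of the ratio of the week-3 FPKM to the week-0 FPKM, without a pseudocount. Their 95% intervals (exact Clopper-Pearson on the reads) cover counting error only and say nothing of the mice. Markers of the sort and of other cells also differed between the libraries. The LSK markers Kit, Ly6a, Cd34 and Flt3 had reads in both libraries and were lower at week-3. Their FPKM went from 16.9 to 11.5 for Kit, from 19.8 to 14.8 for Ly6a, from 60.9 to 39.9 for Cd34 and from 157 to 38.9 for Flt3. The summed FPKM of 7 mast cell markers was 55.8 at week-0, where Tpsb2 and Mcpt4 were at 0 reads, and 3047 at week-3. It went from 1328 to 6437 for 6 neutrophil and macrophage markers, from 295 to 33.9 for 6 B and plasma cell markers, and from 770 to 59.1 for 5 erythroid markers. Most of the neutrophil and macrophage sum came from Elane (933 and 5143) and Mpo (309 and 988). The interval of the change lay above 0 for 4 of these 6 markers. It held 0 for Ly6g (5 reads in each library) and Itgam (30 reads in each library). Most of the B and plasma cell sum came from Jchain at week-0 (221, then 6.76) and from Cd79b at week-3 (23.5, then 26.4). The interval of the change of Cd79b held 0. Of the 5 B and plasma cell markers above 0 in both libraries, 4 were lower at week-3 and 1, Cd79b, was not. The 5 T cell markers summed to 1.33 and 0.491, with Cd3e and Cd8a at 0 at week-3. All 8 immediate-early genes were lower at week-3, 7 of them past a factor of 2, with sums of 10732.5 and 3256. The part of these differences in the results below was not tested, and in bulk RNA fewer cells of a type cannot be told apart from less RNA per cell.

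Bcr and both Abl kinases had lower levels in the week-3 library, although BA was induced there. Bcr, whose own product is a regulator of small GTPases (ENSMUSG00000009681, GRCm38 chromosome 10 from 75060896 to 75184923), had 371 reads (FPKM 8.93) at week-0. The week-3 library held 108 reads (FPKM 4.25), which is 2.10-fold lower. Its log2 change was -1.07, with an interval from -1.39 to -0.76 that lay wholly below 0, and with a pseudocount of 1 it was -0.92, within a factor of 2. The intervals of its levels in the 2 libraries were far apart, from 8.04 to 9.89 at week-0 and from 3.49 to 5.13 at week-3.

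Abl1, the kinase that supplies the catalytic part of BA (ENSMUSG00000026842, chromosome 2 from 31688376 to 31804227), had 395 reads (FPKM 3.00) at week-0, and 144 reads (FPKM 1.79) at week-3. Its log2 change of -0.75 (95% interval -1.03 to -0.47) was beyond counting error but did not reach a factor of 2. Abl2, the other Abl kinase, which has a longer tail that binds actin (ENSMUSG00000026596, chromosome 1 from 156558786 to 156649568), went from 405 reads (FPKM 4.97) to 116 reads (FPKM 2.33). It was 2.13-fold lower at week-3, a log2 change of -1.09 (95% interval -1.40 to -0.79), which was -0.84 with a pseudocount of 1. The week-3 values of all 3 genes were therefore below their week-0 intervals. The gene-level counts do not separate reads of the fused BA transcript from those of the mouse genes, so reads of BA that aligned to Bcr or Abl1 cannot be told apart from reads of the genes themselves. In GENCODE M21, 94 bases of Abl1 exons overlap an antisense gene, Gm13427, with 15 reads and 1 read in these libraries, and whether strand was used in counting was not stated.

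Among the adaptors that bind Abl, Crkl had the largest fall of the 10 genes and Crk was nearly level. Crkl (ENSMUSG00000006134, chromosome 16 from 17451987 to 17486255) had 467 reads (FPKM 19.0) at week-0, the highest FPKM of the 10 genes in that library. The week-3 library held 86 reads (FPKM 5.73), which is 3.32-fold lower. The log2 change was -1.73 (95% interval -2.08 to -1.40), and 7.76% of the 15377 genes above 0 in both libraries had a lower value. Crk (ENSMUSG00000017776, chromosome 11 from 75679259 to 75706908), which like Crkl consists of domains that bind phosphotyrosine and proline-rich stretches, had 172 reads (FPKM 2.96) at week-0 and 97 reads (FPKM 2.73) at week-3. Its log2 change of -0.12 had an interval from -0.49 to 0.25, so a change was not detectable at this depth.

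Crkl and Abl2 were past a factor of 2 and Crk was not, so the 250 bases before their annotated start are shown, from RefSeq on GRCm38.p6, 5′ to 3′ on the strand of the gene, which is the plus strand for all 3. Capitals mark the GC box GGGCGG or its reverse complement CCGCCC. The window of Crkl is chr16:17451735-17451984, that of Abl2 is chr1:156558537-156558786 and that of Crk is chr11:75679009-75679258.
Crkl: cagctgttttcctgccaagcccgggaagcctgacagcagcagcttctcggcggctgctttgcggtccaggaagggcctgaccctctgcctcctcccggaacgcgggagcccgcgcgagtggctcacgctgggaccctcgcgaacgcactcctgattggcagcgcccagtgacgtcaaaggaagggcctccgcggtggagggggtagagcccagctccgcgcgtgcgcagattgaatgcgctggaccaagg
Abl2: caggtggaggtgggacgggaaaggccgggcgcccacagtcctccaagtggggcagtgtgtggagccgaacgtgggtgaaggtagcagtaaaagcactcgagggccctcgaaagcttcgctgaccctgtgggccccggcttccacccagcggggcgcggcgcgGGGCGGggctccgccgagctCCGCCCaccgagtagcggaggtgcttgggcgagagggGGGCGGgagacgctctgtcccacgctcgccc
Crk: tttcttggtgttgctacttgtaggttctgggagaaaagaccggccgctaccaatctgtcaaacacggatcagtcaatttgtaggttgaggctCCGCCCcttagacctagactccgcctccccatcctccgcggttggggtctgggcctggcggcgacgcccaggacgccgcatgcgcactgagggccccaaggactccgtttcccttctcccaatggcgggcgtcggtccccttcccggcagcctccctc
The GC box was found 3 times for Abl2, 1 time for Crk and not for Crkl. It was present in 32.7% of the 32851 RefSeq windows of this length. The CCAAT box (CCAAT on either strand), held by 33.8% of all windows, was found 1 time for Crkl and 2 times for Crk and not for Abl2. TATAAA (12.4% of windows), the AP-1 motif TGANTCA (6.75%), the E-box CACGTG (6.02%) and the Ets motif CCGGAAG (6.91%), searched on both strands, were not in any of the 3. All 3 windows were rich in G and C, with 67.6% for Crkl, 71.6% for Abl2 and 62.4% for Crk against a median of 52.4% over all windows. RefSeq windows were matched for 8 of the 10 genes, all but Gab2 and Dok1. Bcr was also past a factor of 2, and its window is not printed. All 250 bases of that window lie in GENCODE M21 exons of Bcr. It held the GC box 4 times, with 82.8% G and C. A match is only a description of the letters.

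Of the Grb2 branch, which leads from BA to Ras and PI3K, no gene reached a factor of 2 in either direction. Grb2 (ENSMUSG00000059923, chromosome 11 from 115644045 to 115708597) had 481 reads (FPKM 15.9) at week-0 and 345 reads (FPKM 18.6) at week-3. Its log2 change was 0.23 (95% interval 0.03 to 0.43), and after TMM scaling, which lowers every change by 0.11, the interval held 0. Sos1, the exchange factor that Grb2 brings to Ras (ENSMUSG00000024241, chromosome 17 from 80393752 to 80480453), had the fewest reads of the 10 genes in either library, 96 and 48. Its FPKM was 1.69 and 1.38, a log2 change of -0.29 with an interval from -0.82 to 0.22.

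Gab2, the scaffold (ENSMUSG00000004508, chromosome 7 from 97081586 to 97308946), went from 159 reads (FPKM 3.81) to 76 reads (FPKM 2.98). Its log2 change of -0.36 had an interval from -0.77 to 0.05, which just held 0. Within this branch, a fall by a factor of 2 lay outside the intervals of Grb2, Sos1 and Gab2, and smaller falls of Sos1 and Gab2 lay inside them.

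Of the 2 genes best known for limiting the signal, Cbl was higher at week-3 by less than a factor of 2 and Dok1 was near level. Cbl (ENSMUSG00000034342, chromosome 9 from 44142976 to 44234049) had 318 reads (FPKM 2.84) at week-0 and 253 reads (FPKM 3.69) at week-3. It had the highest change of the 10 genes, 0.38 on the log2 scale (95% interval 0.14 to 0.62), and the interval stayed above 0 with TMM scaling. In the edgeR exact test with an assumed variation of 0.1, the q-value of Cbl was not under 0.05. Dok1 (ENSMUSG00000068335, chromosome 6 from 83030934 to 83033471) had 182 reads (FPKM 7.11) at week-0 and 119 reads (FPKM 7.60) at week-3. The log2 change of Dok1 was 0.10 (95% interval -0.25 to 0.44), and it turned to -0.02 with TMM scaling, so its direction was not settled.

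**Figure D1:**
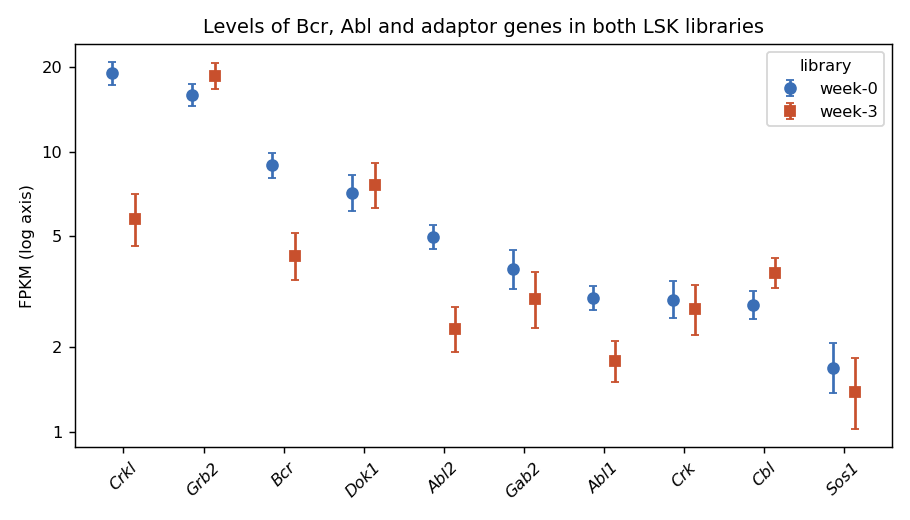
FPKM of the 10 genes (log axis) in the week-0 library (blue circles) and the week-3 library (red squares), ordered by the week-0 level. Bars are exact 95% Poisson intervals of the reads, which cover counting error only, and each point is 1 library of 3 mixed mice. The intervals of the 2 libraries lie apart for Crkl, Bcr, Abl2, Abl1 and, with the week-3 level on top, Cbl.

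Counted together, 3 of the 10 genes (Bcr, Abl2 and Crkl) were called lower, with an FPKM ratio of at most 0.5, and none was called higher, with a ratio of at least 2. The calls of Bcr and Abl2 were lost with a pseudocount of 1 and with the edgeR exact test at an assumed variation of 0.2 (q-value 0.112 for Bcr and 0.0980 for Abl2), which left Crkl, and at 0.4 the count was 0. Over the 15377 genes above 0 in both libraries the background was 16.2% lower and 14.2% higher. Over the 11394 of these genes that reached an FPKM of 1 in 1 library or both, as all 10 genes had, it was 14.2% lower and 12.2% higher. The interval lay below 0 for 4 of the 10 genes (Abl1 joined the other 3) and above 0 for Grb2 and Cbl. Of all 15377 genes, 22.5% had an interval below 0 and 28.4% above 0, a share that also depends on how many reads a gene has. The median change of the 10 genes was -0.32 and that of all genes 0.09. With 10 genes picked for their link to BA, these shares describe the genes and do not set them apart from other genes.

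**Figure D2:**
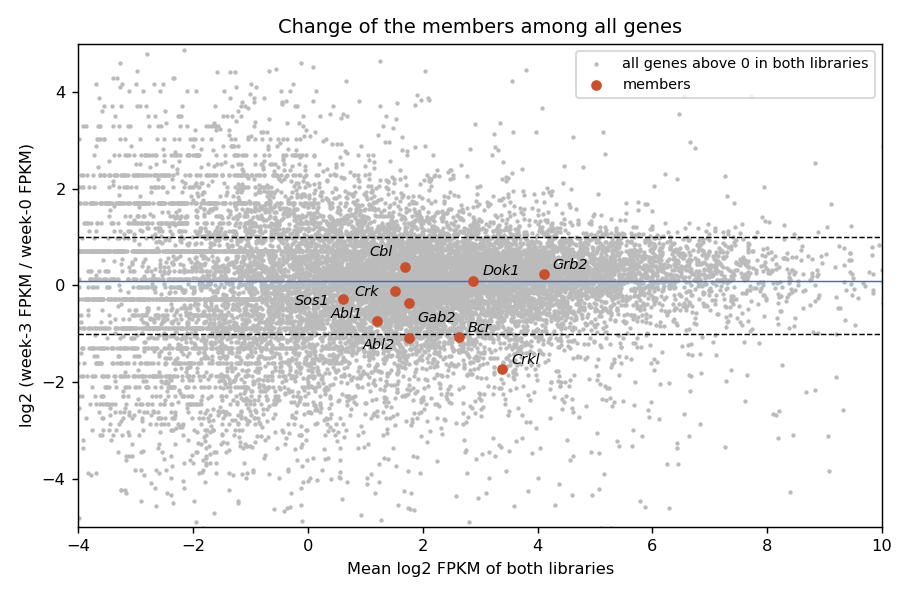
Change between the libraries (log2 of week-3 over week-0 FPKM) against the mean log2 FPKM for the 15377 genes above 0 in both libraries (grey), with the 10 genes in red. Dashed lines mark a factor of 2 and the blue line marks the median of all genes, 0.09. Of these genes, 502 lie outside the plotted range. Crkl lies lowest of the 10 genes at -1.73, and Bcr and Abl2 lie just past the lower line.

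The order of the levels also differed between the libraries. At week-0 Crkl and Grb2 were on top with overlapping intervals, followed by Bcr and Dok1, then Abl2, then Gab2, Abl1, Crk and Cbl, whose neighbouring intervals overlapped, and Sos1 was lowest. At week-3 Grb2 alone was on top, since its interval, from 16.7 to 20.7, lay above that of Dok1, from 6.30 to 9.10. From Dok1 down to Sos1, each gene overlapped with the next. Among the genes with reads in each library, the FPKM of Crkl was above that of 87.1% of them in the first and 69.4% in the second. For Bcr these shares were 77.3% and 64.4%, whereas for Grb2 they were 85.2% and 86.1%. The exon lengths behind the FPKM bear on such comparisons between genes. The length was 20738 bases for Abl1, 9137 for Crk and 4027 for Dok1, against 11596, 4730 and 1977 bases of exons in GENCODE M21. With the M21 lengths, a choice made after seeing the data, Grb2 (26.0 on the FPKM scale) was above Crkl (14.6) at week-0. At week-3, Crk (5.28) and Cbl (5.27) were then also above Crkl (4.39), and Dok1 (15.5) was well above all of them. The overlaps of neighbouring intervals given above are those of the FPKM. The length cancels in the change of a gene between the libraries.

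Shares of reads within a pair of related genes do not depend on how the libraries are scaled, and show unequal change only. Crk supplied 26.9% of the Crk and Crkl reads at week-0 (95% exact binomial interval 23.5 to 30.5) and 53.0% at week-3 (45.5 to 60.4). The odds of a Crk read in the later library were 3.06 times those at week-0 (95% interval 2.15 to 4.36), so the fall of Crkl relative to Crk exceeded counting error. Of the Bcr and Abl1 reads, 48.4% and then 42.9% came from Bcr, and the interval of the odds ratio, from 0.59 to 1.07, held 1. Abl1 supplied 49.4% and 55.4% of the reads of the 2 Abl kinases, again with an interval that held 1, from 0.95 to 1.70. At this depth Abl1 could thus not be told apart from Bcr or from Abl2 in its change.

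Of the other pairs, Dok1 and Dok2 shifted most. Dok1 supplied 16.0% of their reads at week-0 (95% exact binomial interval 13.9 to 18.2) and 47.4% at week-3 (41.1 to 53.8), an odds ratio of 4.74 (3.50 to 6.44). Of the Cbl and Cblb reads, 75.4% and then 82.4% came from Cbl, with an odds ratio of 1.53 (1.05 to 2.26). The odds ratio of Sos1 against Sos2 was 0.637, and its interval just reached 1. That of Gab1 against Gab2 was 1.02 (0.54 to 1.88). The 7 pairs were compared without a correction for their number.

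**Figure D3:**
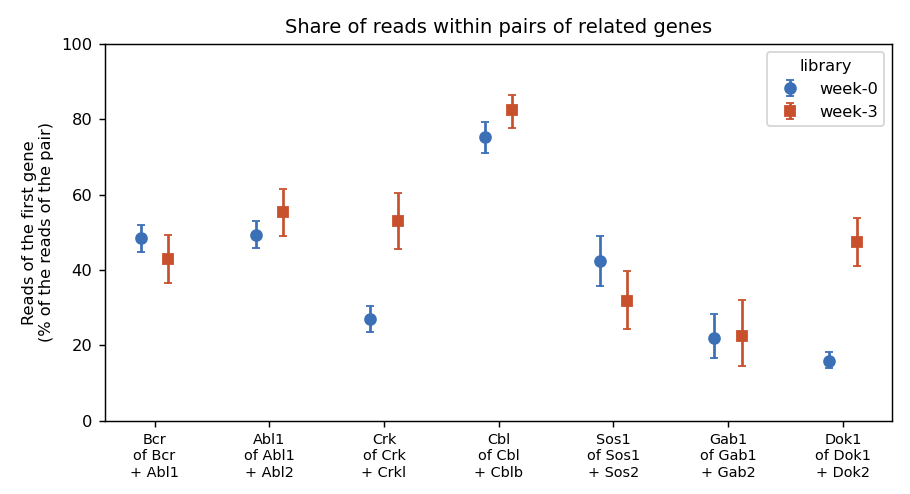
Share of reads of the first gene among the reads of a pair of related genes, in percent, in the week-0 library (blue circles) and the week-3 library (red squares), with exact 95% binomial intervals. The intervals of the 2 libraries lie apart for Crk with Crkl and for Dok1 with Dok2, and overlap for the other 5 pairs.

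The 10 close paralogs of these genes moved in both directions. Dok2, which like Dok1 restrains Ras in myeloid cells, fell from 959 reads (FPKM 39.2) to 132 reads (FPKM 8.82), a log2 change of -2.15 (95% interval -2.43 to -1.89). Dok3, known from B cells and myeloid cells, rose from 227 reads (FPKM 23.1) to 301 reads (FPKM 50.1), a change of 1.12 (0.86 to 1.37). The 3 Dok genes thus changed in 3 ways, with Dok2 past a factor of 2 downwards, Dok3 past it upwards and Dok1 near level. With the edgeR exact test at an assumed variation of 0.2, the call of Dok2 was kept and that of Dok3 was lost. Grap, a relative of Grb2, had 6 reads and then 28, a change of 2.93 with a wide interval from 1.63 to 4.49.

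The remaining paralogs were closer to level or rested on few reads. Abr, a close relative of Bcr, had 542 and 225 reads and a change of -0.56 (95% interval -0.79 to -0.33), below 0 but not past a factor of 2. Sos2 (131 and 103 reads, change 0.36), Cblb (104 and 54 reads, change -0.24) and Gab1 (45 and 22 reads, change -0.32) had intervals that held 0. Gab3 had 17 and 5 reads and Grap2 had 5 and 1, with changes of -1.06 and -1.61 and intervals that held 0 in each case. Cblc was at 1 read and 0 reads, under what the depth can show.

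Beyond the paralogs, 24 partners of the 10 genes were listed, and all were above 0 in both libraries. Of these, 5 were called lower and 1 was called higher, beside a background of 16.2% lower and 14.2% higher over all genes. The lower share was thus near that of all genes, and the higher share, which rests on 1 gene, was below it. Of the 9 partners of Abl and Crk, 3 were called lower and none higher. Their median change was -0.73, and the interval lay below 0 for 6 of them and held 0 for the other 3. Of all genes, 22.5% had an interval below 0, a share that also depends on how many reads a gene has. Abi2, which binds Abl kinases and belongs to the complex that drives actin branching, had 290 reads (FPKM 2.36) at week-0 and 60 reads (FPKM 0.800) at week-3. The log2 change of Abi2 was -1.56 (95% interval -1.99 to -1.16), and with a pseudocount of 1 it was -0.90, within a factor of 2. Dock2, an activator of Rac that moves blood cells, went from 1358 to 386 reads, a change of -1.11 (-1.27 to -0.94). Bcar1, a docking protein of focal adhesions that binds Crk, had 21 reads and then 1 read, which leaves a wide interval for its change, between -9.05 and -1.05. With a pseudocount of 1 the change of Bcar1 was -0.92, also within a factor of 2. Nedd9, the relative of Bcar1, was at -0.97 and passed the limit with TMM scaling.

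Among the 6 partners of Cbl and Dok1, 2 were called lower and none higher (16.2% and 14.2% of all genes), with a median change of 0.02. Sh2b3 (Lnk), an adaptor that restrains cytokine receptors in stem cells, fell from 987 reads (FPKM 12.7) to 113 reads (FPKM 2.37). The log2 change of Sh2b3 was -2.42 (95% interval -2.71 to -2.14). Inpp5d, which encodes the lipid phosphatase SHIP1, fell from 1562 reads (FPKM 19.8) to 324 reads (FPKM 6.71), a change of -1.56 (-1.74 to -1.39). The other 4 genes of this list lay between -0.14 and 0.58.

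Of the partners of Grb2 and Gab2, none was called lower. The 8 described here, among them the adaptor Shc1 and the kinase Fes, lay between -0.77 for Shc1 and 0.76 for Fes, and 4 of them were negative. Over the paralogs and partners together, 8 of the 33 genes above 0 in both libraries were called lower and 3 higher, with a median change of -0.24, beside 16.2% and 14.2% of all genes. The 8 became 4 with a pseudocount of 1 and 5 with the edgeR exact test at an assumed variation of 0.2.

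**Figure D4:**
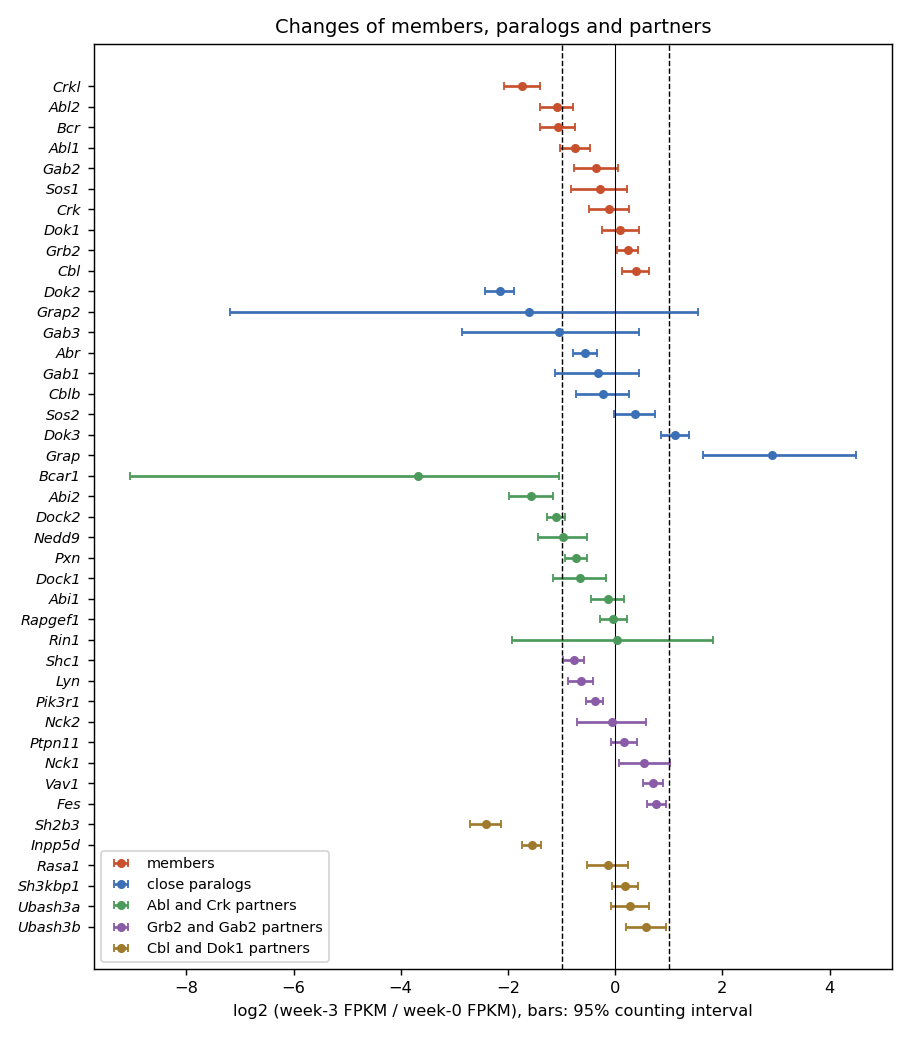
Log2 change between the libraries of the 10 genes (red), their close paralogs (blue) and their partners (green, purple and brown), for the genes described that were above 0 in both libraries. Bars are 95% counting intervals and dashed lines mark a factor of 2. Dok2, Abi2, Bcar1, Inpp5d and Sh2b3 lie wholly to the left of the lower line, as does Crkl, and Grap lies wholly to the right of the upper line.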

How the data were processed

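RNA of sorted BM LSKs was sequenced as 1 library per time point. The cDNA was amplified (SMARTer kit) and read from both ends. After trimming, the authors aligned to GRCm38, for which the submitters' processing notes name TopHat2 2.0.9. The counting tool and annotation release are not given in the sources used here. The authors deposited raw read counts per gene, and FPKM that they scaled by exon length and by the reads counted on genes. Columns were joined by Ensembl identifier, and exon lengths were recovered from reads and FPKM.

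Changes are FPKM ratios, since 1 library per time point allows no replicate test. A gene was called past a ratio of 2 or 0.5, the fold limits of the study. Genes above 0 in both libraries were compared. The edgeR 4.0.16 exact test (R 4.3.3) with an assumed biological coefficient of variation and size factors of DESeq2 1.42.0 served as alternatives only. The study used edgeR without stating a dispersion. Intervals are exact and were checked on simulated reads, as were the edgeR calls. Python 3.11.15 with scipy 1.17.1 was used.

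The 10 genes and all lists were chosen with earlier results of these data known. Named genes are the 10 genes, their close paralogs, and partners with at least 20 reads in all and a ratio past the limits. Nedd9, Shc1, Fes and the genes of the KEGG pathway were named after their values were seen. With 2 libraries, no likeness of pattern can be ranked. A few genes of the lists are not reported here by name. The miRNA array was not analysed here.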

Additional observations from a re-analysis of the deposited data

How the results depend on the processing

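TMM scaling lowered every change by 0.11 and median-of-ratios scaling by 0.09, and totals without the 10 genes with most reads raised it by 0.02. Under these the same 3 genes, Bcr, Abl2 and Crkl, stayed past a ratio of 0.5. With a pseudocount of 1, added after seeing the data, 1 of the 10 genes was lower (Crkl), and Bcr and Abl2 were at -0.92 and -0.84. It left 4 paralogs and partners lower in place of 8. In edgeR's exact test with an assumed variation of 0.1, all 3 genes had a q-value under 0.05. With 0.2, 1 of them (Crkl) and 5 paralogs and partners stayed lower. With 0.4, 0 of the 10 genes and 0 paralogs and partners were called in either direction, and 87 genes in all were lower and 29 higher. With limits of 1.5 and 0.67, 13 paralogs and partners were lower and 5 higher, and Abl1 became the 4th gene called lower. An interval above 0 was held by 1 gene, Cbl, in place of 2 with TMM, with median-of-ratios scaling and with 99% intervals. The interval of Gab2 lay below 0 with either scaling. The median change of the 10 genes ranged from -0.44 to -0.22. In the other 38 summary comparisons the count or median stayed close to the main one. No paired analysis was possible because each time point had 1 library. Changes of genes with few reads, such as Sos1, are limited by depth.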

Other observations

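The deposited tables assign 72 genes to the KEGG pathway of chronic myeloid leukemia, among them 8 of the 10 genes, all but Abl2 and Dok1. This list was taken up after the values had been seen and is given as a description. Of its 69 genes above 0 in both libraries, 14 had an FPKM ratio of at most 0.5, and 1, Pik3r5, a regulatory subunit of PI3K, had a ratio of at least 2 (log2 change 1.20, 95% interval 0.62 to 1.80). Of all genes, 16.2% were lower and 14.2% higher by these limits. The share of lower genes was thus near that of all genes, and the share of higher genes was below it. The median change was -0.29, and without the 10 genes, their paralogs and partners it was -0.28 over 56 genes, with 12 of them lower. Among the lower genes with many reads were Cdkn1a, a cell cycle inhibitor (-2.60), Nfkbia, an inhibitor of NF-kappaB (-2.57), and Rela, an NF-kappaB subunit (-1.76). Of the transcription factors Stat5a and Stat5b, targets of BA signalling, Stat5b went from 857 to 218 reads (-1.27) and Stat5a from 706 to 248 reads (-0.80). Nras had a change of 0.58 (95% interval 0.46 to 0.70) and Hras of 0.76 (0.20 to 1.32).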
